A study of Mus musculus with 4 samples.

Results

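De novo lipogenesis, the making of fatty acids from sugar-derived carbon, was followed through 10 genes: Fasn, Acaca, Acacb, Acly, Scd1, Elovl6, Srebf1, Thrsp, Me1 and Mlxipl. They were compared between liver hepatocytes of HepKO and WT mice on 4 two-colour Agilent arrays. The 10 were picked by name, as enzymes and regulators of the pathway, and each was read from the probes whose RefSeq accession belongs to it. All 10 were on the array, among 16358 named genes with a probe. Their 13 probes were well above background on all 4 arrays in both genotypes, so that all 10 also stood among the 11499 named genes measured.

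Every mouse was of the C57BL/6J strain and carried floxed Pnpt1 alleles (Pnpt1 fl/fl, written neo-fl in the labels' breeding scheme). HepKO mice had in addition 1 copy of Albumin-Cre, a recombinase driven by the Albumin promoter, which is active in hepatocytes. WT mice had the floxed alleles without Cre. Pnpt1 encodes PNPase, an RNA-degrading enzyme of mitochondria. The pair labelled male was 12.29 weeks old, an age that part of the labels gives as 12.9, and the pair labelled female was 4.29 weeks old. Each pair held 1 HepKO and 1 WT mouse of the same litter, so that 4 mice gave n = 2 pairs. Body weight was 17.37 g in HepKO and 22.7 g in WT of the pair labelled male, and 16.81 g and 18.49 g in the pair labelled female. Liver weight was 1.19 g and 1.62 g, and 0.89 g and 0.97 g, in the same order. RNA came from the washed cells of collagenase-perfused livers, with no sort for hepatocytes named. Feeding state and hour of collection, which lipogenic genes are known to follow, are not named in the labels.

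The RNAs of a pair met on 2 arrays of opposite dye order, with HepKO in Cy5 in replicate 1 and in Cy3 in replicate 2. A log2 ratio below means HepKO over WT, so that a negative value is lower in HepKO. The value of a pair is the mean of its 2 arrays, the error is limma's moderated standard error over the 2 pairs, and adjusted p-values are Benjamini-Hochberg values over all 11499 genes, with 0.05 as the threshold. A level is the normalized log2 intensity of 1 mouse on 1 probe, and levels are compared only within a probe.

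The targeted gene was no clean check of the genotype. On the brighter Pnpt1 probe the ratios were 0.31 and 0.058 in the pair labelled male and -0.38 and -0.38 in the pair labelled female. The dimmer probe read -0.67, -0.32, -0.50 and -0.60, with a mean of -0.52 ± 0.13. Where the probes lie relative to the deleted part was not analysed here. The sex-linked genes ran against the labels in both pairs. The Y-linked Ddx3y, Eif2s3y and Kdm5d stood above background in both genotypes of the pair labelled female, on each of its arrays, and on 0 arrays in the other pair, while Xist showed the opposite. Sex is therefore named only as labelled, and the HepKO over WT ratios within a pair do not use it. Of the 14 measured hepatocyte markers (18 listed), 1 was lower and none higher, with a median log2 ratio of -0.19. Alb read -0.12, Ttr 0.24 and Hnf4a 0.086, none past the threshold. Over all genes 1378 were higher and 427 lower in HepKO at an adjusted p under 0.05, and the second count dropped to 204 without replicate 2 of the pair labelled male.

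In liver, ATP-citrate lyase splits exported citrate into acetyl-CoA, the acetyl-CoA carboxylases turn it into malonyl-CoA, and fatty acid synthase builds palmitate from these units with NADPH, part of which malic enzyme supplies. Elovl6 lengthens palmitate to stearate and Scd1 puts the first double bond into the chain. Insulin acts on the pathway largely through Srebf1, the gene of the transcription factor SREBP-1, and sugar through Mlxipl, the gene of ChREBP. Thrsp, or Spot14, is a small nuclear and cytosolic protein that follows thyroid hormone, carbohydrate and feeding.

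RefSeq promoter windows of build GRCm38.p6 were found for 9 of the 10 genes, 13 windows in all, and the 250 bases before the start site are shown for 4 of them. Acacb is shown as a gene that passed the test, Thrsp and Fasn as genes whose pairs lay far apart, and Mlxipl as the only one of the 9 with an E-box. Acacb lies at chr5:114165268-114165517 on the plus strand, Thrsp at chr7:97417551-97417800 and Fasn at chr11:120824548-120824797 on the minus strand, and Mlxipl at chr5:135089640-135089889 on the plus strand. Sequences read 5′ to 3′ toward the start site, with CCAAT, GC box and E-box matches in capitals.
Acacb: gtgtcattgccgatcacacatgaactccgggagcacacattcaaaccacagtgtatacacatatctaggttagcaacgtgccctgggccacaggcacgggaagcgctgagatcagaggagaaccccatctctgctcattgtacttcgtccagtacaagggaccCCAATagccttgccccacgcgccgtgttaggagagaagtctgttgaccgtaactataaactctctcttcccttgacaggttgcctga
Thrsp: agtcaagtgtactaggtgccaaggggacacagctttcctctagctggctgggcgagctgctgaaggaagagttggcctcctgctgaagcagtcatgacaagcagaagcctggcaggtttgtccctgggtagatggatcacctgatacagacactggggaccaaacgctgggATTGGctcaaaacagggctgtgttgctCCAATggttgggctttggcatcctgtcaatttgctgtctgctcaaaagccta
Fasn: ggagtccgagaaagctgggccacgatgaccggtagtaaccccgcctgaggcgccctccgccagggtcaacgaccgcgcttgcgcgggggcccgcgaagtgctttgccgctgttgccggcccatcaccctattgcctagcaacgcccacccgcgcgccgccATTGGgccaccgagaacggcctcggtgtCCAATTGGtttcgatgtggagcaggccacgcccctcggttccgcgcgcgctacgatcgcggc
Mlxipl: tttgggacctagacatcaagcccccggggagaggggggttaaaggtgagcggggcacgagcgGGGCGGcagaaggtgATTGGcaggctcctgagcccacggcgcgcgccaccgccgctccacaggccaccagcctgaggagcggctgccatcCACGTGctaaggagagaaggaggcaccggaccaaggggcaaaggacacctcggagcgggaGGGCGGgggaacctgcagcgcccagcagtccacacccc
Both strands of the 300-base windows (250 bases before and 50 after the start) were searched for the E-box CACGTG, bound by ChREBP-type factors among others, the sterol element core TCACNCCA, the CCAAT box CCAAT and the GC box GGGCGG. Counted from the start site, the CCAAT match of Acacb runs from -87 to -83. Those of Thrsp run from -79 to -75 on the opposite strand and from -52 to -48. Fasn has 3, from -90 to -86, from -62 to -58 and from -59 to -55, the last 2 on opposite strands and overlapping. CCAAT matches were present in windows of 7 of the 9 matched genes (8 of 13 windows), and in 37.4% of all 32851 mouse promoter windows. GC boxes were in windows of 4 genes (5 of 13 windows), against 35.7% of all windows. An E-box was found in 1 window, the first of Mlxipl, and a sterol element core in 1, the second of Mlxipl, against 7.15% and 4.36% of all windows. Such matches describe the letters in these windows and do not show that a factor binds there.

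Of the 10 lipogenic genes 2 fell in the unsorted HepKO liver cells, Scd1 and Acacb, and none rose. Of all measured genes 3.71% were called lower and 12% higher. The ratio was below 0 for 9 of the 10, and on all 4 arrays for 6 of them (60%), while over all genes 42.4% lay below 0 and 25% did so on all 4 arrays. The median log2 ratio of the 10 was -0.50, beside a median of 0.083 over all genes. These counts describe a list of 10 related genes, and no test was made over the list. The 5 genes with an unadjusted p under 0.05 in limma were Scd1, Acacb, Thrsp, Elovl6 and Me1, or 50% of the 10, beside 36.3% of all genes. In RNA from whole pellets, fewer cells of a type and less RNA per cell cannot be told apart.

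**Figure D1:**
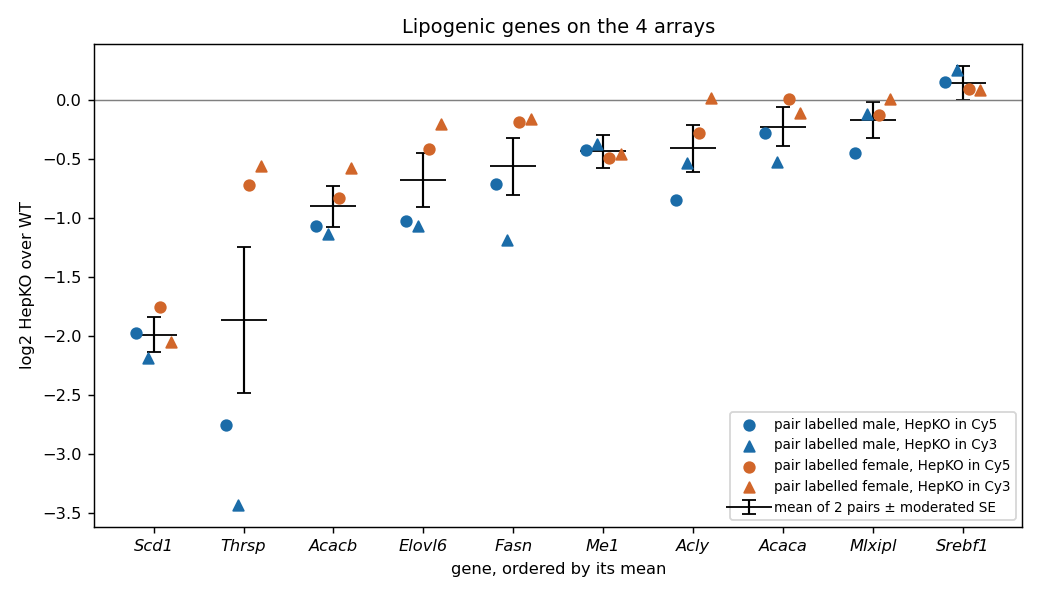
Log2 ratio of HepKO over WT of the 10 lipogenic genes (vertical axis) on each of the 4 arrays, with genes ordered by their mean along the horizontal axis. Blue marks the pair labelled male and orange the pair labelled female, circles are arrays with HepKO in Cy5 and triangles those with HepKO in Cy3, and bars give the mean of 2 pairs with limma's moderated standard error. The 4 points of Scd1 lie between -2.18 and -1.75, while the 2 blue points of Thrsp lie at -2.76 and -3.43, well below its orange points at -0.72 and -0.56.

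Scd1, the stearoyl-CoA desaturase of liver, had the lowest mean ratio of the 10. It read -1.97 and -2.18 on the 2 arrays of the pair labelled male and -1.75 and -2.05 on those of the pair labelled female. The 2 pairs lay close together, and all 4 arrays were far below 0. The mean log2 ratio was -1.99 ± 0.15 (95% interval -2.40 to -1.59, n = 2 pairs), 3.97-fold lower in HepKO, with an adjusted p of 0.0123 in limma, and rank 51 from the lowest among the 11499 genes. Its level was 14.89 in WT and 12.82 in HepKO of the pair labelled male, and 16.02 and 14.12 in the pair labelled female. The WT mice differed by -1.13 (male minus female as labelled), and the lower of them still stood above the HepKO mouse of either pair. The call was lost when outlier spots stayed in the background fit (adjusted p 0.0792) and when dim probes were kept (0.0689), each of which left no gene called on the array, with log2 ratios of -1.99 in both.

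Elovl6, the elongase that hands stearate to Scd1, read -1.02 and -1.06 in the pair labelled male and -0.41 and -0.20 in the pair labelled female. The 4 arrays were below 0, and the pairs did not overlap. The mean log2 ratio was -0.68 ± 0.23 (95% interval -1.31 to -0.045), with an adjusted p of 0.123 in limma, short of the threshold. The WT levels of the 2 pairs nearly coincided, at 10.46 and 10.49, while the HepKO levels were 9.42 and 10.18.

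Among the enzymes that prepare malonyl-CoA, Acacb passed the test and Acaca did not. Acacb encodes the carboxylase at the outer mitochondrial membrane, whose malonyl-CoA restrains fatty acid entry into mitochondria. It read -1.07 and -1.13 in the pair labelled male and -0.83 and -0.58 in the pair labelled female, below 0 on all 4 arrays. The mean log2 ratio of Acacb was -0.90 ± 0.17 (95% interval -1.37 to -0.43), 1.87-fold lower, with an adjusted p of 0.0428 in limma and rank 482 from the lowest. Its levels were 8.08 and 6.98 in WT and HepKO of the pair labelled male and 8.11 and 7.41 in the pair labelled female, so that the 2 WT mice nearly coincided. The call of Acacb rested on single arrays: its adjusted p was 0.064 without replicate 2 of the pair labelled male and 0.0718 without replicate 1 of the pair labelled female. It was also lost with median centring in place of loess (log2 ratio -0.72, adjusted p 0.0713), with outlier spots in the background fit (0.154) and with dim probes kept (0.0991), while the deposited Feature Extraction log ratios gave a larger log2 ratio of -1.59 with an adjusted p of 0.034.

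Acaca encodes the cytosolic carboxylase that feeds fatty acid synthesis. Its brightest probe read -0.28 and -0.52 in the pair labelled male and 0.0086 and -0.11 in the pair labelled female. The values straddled 0 in the second pair. The mean log2 ratio was -0.23 ± 0.17 (95% interval -0.68 to 0.23), with an adjusted p of 0.379 in limma. The other 2 Acaca probes gave -0.30 and -0.23, both below 0 on all 4 arrays, so that the 3 probes differed little in their means. The interval of Acaca does not reach the -0.90 of Acacb, but the difference between the 2 carboxylases was not tested.

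Acly, ATP-citrate lyase, read -0.84 and -0.54 in the pair labelled male and -0.28 and 0.019 in the pair labelled female. The last array stood at 0 and the other 3 below it. Its mean log2 ratio was -0.41 ± 0.20 (95% interval -0.95 to 0.13), with an adjusted p of 0.219 in limma. Me1, the cytosolic malic enzyme that yields NADPH, had the closest arrays of the 10 genes, at -0.43 and -0.37 in the pair labelled male and -0.49 and -0.46 in the pair labelled female. Its mean was -0.44 ± 0.14 (95% interval -0.83 to -0.046), with an adjusted p of 0.114 in limma. Me1 was 1 of only 2 of the 10 genes, with Srebf1, that were not lower in the pair labelled male than in the other. Its levels of 10.77 in WT and 10.37 in HepKO of the pair labelled male were both below the 11.58 and 11.11 of the pair labelled female.

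Fasn, fatty acid synthase, was measured by 2 probes that disagreed in size. The brighter read -0.72 and -1.19 in the pair labelled male and -0.19 and -0.16 in the pair labelled female. The dimmer read -1.79 and -2.0, and -0.45 and -0.60, in the same order. Both probes were below 0 on all 4 arrays, and on both the pair labelled male lay lower. The brighter probe had a mean log2 ratio of -0.56 ± 0.24 (95% interval -1.22 to 0.088) with an adjusted p of 0.176 in limma. The dimmer had -1.21 ± 0.37 (95% interval -2.26 to -0.16) with an adjusted p of 0.118 over all 22813 probes tested. Neither passed the threshold. On the brighter probe the WT levels were 14.66 and 14.64, and the HepKO levels 13.71 and 14.47. The WT levels thus nearly coincided, and the HepKO mice differed by -0.76 (male minus female as labelled).

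Thrsp had the widest spread of the 10. It read -2.76 and -3.43 in the pair labelled male and -0.72 and -0.56 in the pair labelled female, below 0 on all 4 arrays with a wide gap between the pairs. The mean log2 ratio was -1.87 ± 0.62 (95% interval -3.57 to -0.16), 3.65-fold lower at rank 58 from the lowest, and the adjusted p was 0.118 in limma. Thrsp thus stood close to Scd1 in rank but missed the threshold. Its WT levels were 15.30 in the pair labelled male and 13.36 in the pair labelled female, 1.95 log2 units apart. In HepKO they were 12.21 and 12.72, a difference of -0.51 in the opposite direction.

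The genes of the 2 transcription factors did not pass the test in either direction. Srebf1 read 0.15 and 0.25 in the pair labelled male and 0.089 and 0.084 in the pair labelled female, the only one of the 10 above 0 on all 4 arrays. Its mean log2 ratio was 0.14 ± 0.14 (95% interval -0.25 to 0.54), with an adjusted p of 0.511 in limma, and it turned to -0.24 with median centring in place of loess. Which Srebf1 isoforms the probe reads was not analysed. Its levels were 15.28 in WT and 15.48 in HepKO of the pair labelled male, and 14.41 and 14.50 in the pair labelled female. The pairs thus stood further apart than the genotypes.

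Mlxipl read -0.45 and -0.12 in the pair labelled male and -0.13 and 0.0080 in the pair labelled female. The values lay at or little below 0. Its mean log2 ratio was -0.17 ± 0.15 (95% interval -0.59 to 0.24), with an adjusted p of 0.460 in limma. The levels were 12.53 and 12.25 in WT and HepKO of the pair labelled male, and 12.29 and 12.23 in the pair labelled female. For both factor genes the interval holds values on either side of 0, and changes of up to 0.54 upward for Srebf1 and -0.59 for Mlxipl remain within it.

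**Figure D2:**
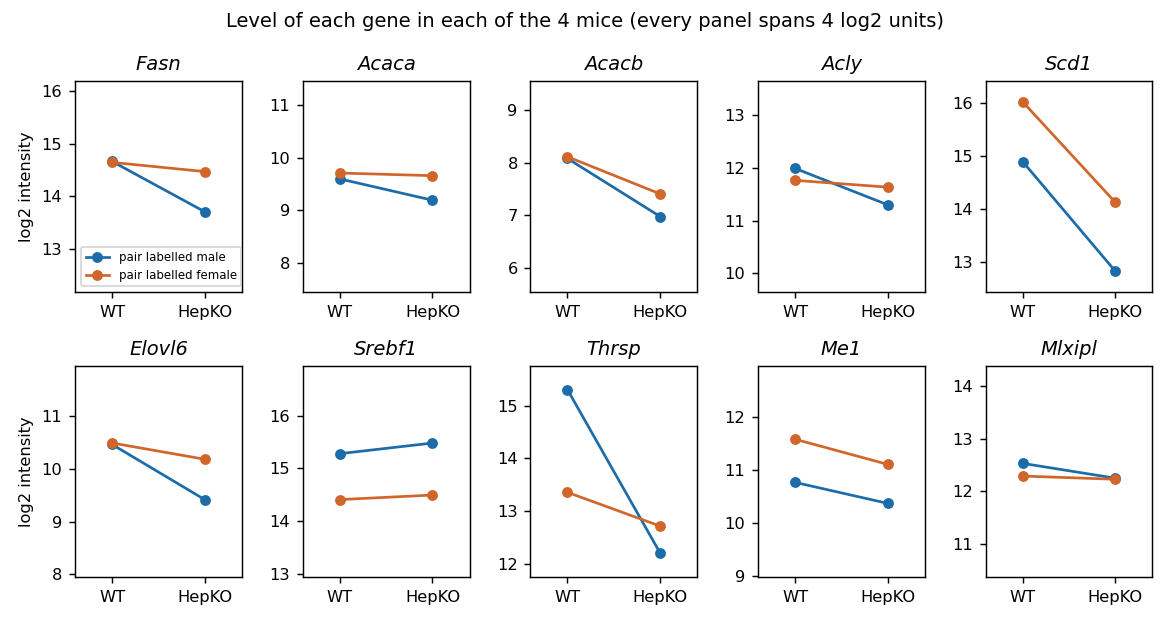
Level of each of the 10 lipogenic genes in each of the 4 mice, as normalized log2 intensity (vertical axis, 4 log2 units in every panel) in WT and HepKO (horizontal axis). Lines join the mice of a pair, blue for the pair labelled male and orange for the pair labelled female. The lines of Scd1 run nearly parallel, from 14.89 to 12.82 and from 16.02 to 14.12, while those of Thrsp cross.

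The pairs differed in size more than in direction. The median log2 ratio of the 10 genes was -0.82 in the pair labelled male and -0.24 in the pair labelled female. The ratio was lower in the pair labelled male for 8 of the 10 genes (80%), beside 52.3% of all genes and 73.2% of the 4871 genes with a mean below 0. The distance from 0 was larger in the pair labelled male for 9 of the 10, against 67.3% of all genes. Taken as male minus female as labelled, the difference between the pair ratios was -0.17 for Scd1 and 0.078 for Me1. It was -0.78 for Fasn, -0.74 for Elovl6 and -2.45 for Thrsp. The pairs thus nearly coincided for Scd1 and Me1, and lay far apart for Thrsp. The WT levels differed, in the same direction, by 0.017 for Fasn, -0.033 for Acacb and -0.028 for Elovl6, and the HepKO levels by -0.76, -0.43 and -0.76. For these 3 genes the gap between the pairs lay in the HepKO mice, while for Thrsp most of it lay in the WT mice, at 1.95. Hepatocyte markers were also lower in the pair labelled male, with a median log2 ratio of -0.61 in the pair labelled male and -0.020 in the pair labelled female, and their part in the gap was not tested. No test of a difference between the pairs was made, since each pair is 1 replicate. Between them, slide, age and labelled sex cannot be told apart.

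**Figure D3:**
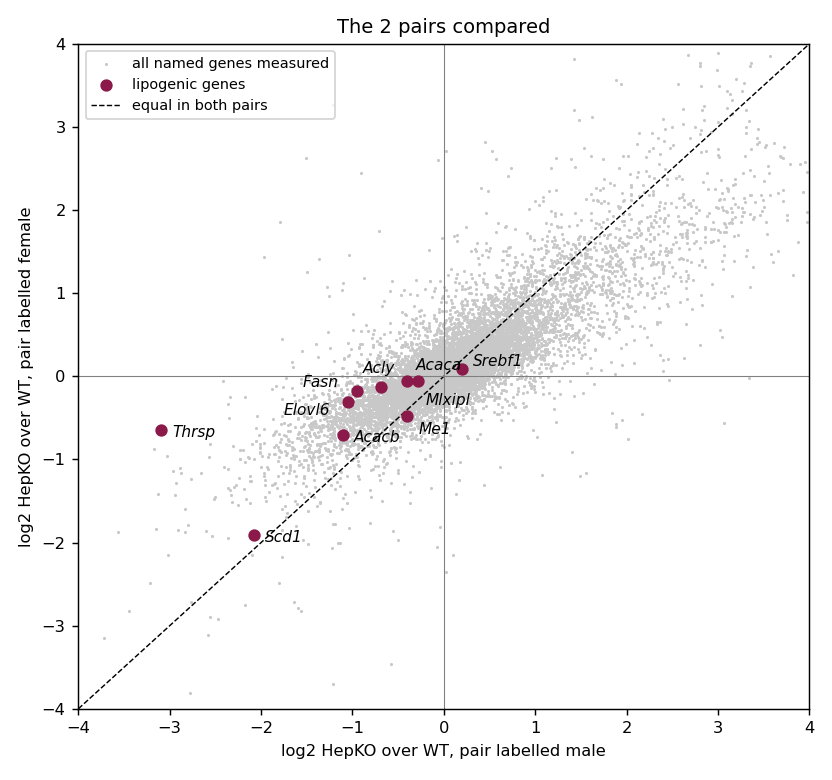
Log2 ratio of HepKO over WT in the pair labelled male (horizontal axis) against that in the pair labelled female (vertical axis), for the 10 lipogenic genes (large points) and all named genes measured (grey points, 87 of them outside the axes). The dashed line marks equal ratios in both pairs. Scd1 lies near the line at -2.08 and -1.90, and Thrsp far above it at -3.09 and -0.64.

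The direct partners of the lipogenic factors were read next. Insig1, which holds SREBP precursors in the endoplasmic reticulum and is itself an SREBP target, fell. It read -2.08 and -1.91 in the pair labelled male and -1.13 and -0.78 in the pair labelled female, with a mean of -1.48 ± 0.29 and an adjusted p of 0.0456 in limma. A second Insig1 probe gave -1.15. Insig1 was below 0 in every alternative, but its call held in only 5 of 14, and was lost without replicate 2 of the pair labelled male (0.0655) or replicate 1 of the pair labelled female (0.0757). Mid1ip1, the Spot14-related protein that binds acetyl-CoA carboxylase and aids its polymerisation, also fell. It read -1.43, -1.29, -0.82 and -0.85 in the same order of arrays, with a mean of -1.10 ± 0.19 and an adjusted p of 0.0366, which rose to 0.0566 without replicate 2 of the pair labelled male. Scap, the escort of SREBP precursors, had a mean of -0.69 ± 0.18 and an adjusted p of 0.0769, with all 4 arrays between -0.98 and -0.43. Mlx, the dimer partner of ChREBP, had -0.41 ± 0.15 with an adjusted p of 0.133. Insig2 stood at 0.21 ± 0.15, Srebf2 at -0.18 ± 0.16 and Nr1h3, the gene of the liver X receptor alpha, at 0.0068 ± 0.14, with arrays on both sides of 0 and signs that turned under other settings. A second, dimmer Srebf2 probe read -0.55, -0.36, -0.17 and -0.10 in the same order of arrays, with a mean of -0.30 ± 0.15. The second Insig2 probe had a mean of 0.16 ± 0.14, with arrays on both sides of 0.

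A wider set of 116 genes around the pathway, in 7 lists, had 111 measured, of which 10 rose (9.01%, beside 12% of all genes) and 8 fell (7.21%, beside 3.71%). Its median log2 ratio was -0.15. In the single lists, of 12 to 23 measured genes each, 0 to 3 calls in a direction are too few to set apart from these shares. Of 19 measured genes of precursor supply and fatty acid chain synthesis (21 listed), 2 fell and 1 rose, with a median of -0.40. Aacs, which makes acetoacetyl-CoA in the cytosol, had -1.43 ± 0.19 (adjusted p 0.0238 in limma), and Pdha1, a pyruvate dehydrogenase subunit, -0.83 ± 0.15 (0.0406). G6pdx, which yields NADPH in the pentose phosphate pathway, had 0.97 ± 0.17 (0.0358), opposite in sign to the NADPH-yielding Me1. Acss2, which makes acetyl-CoA from acetate, was chosen after its values were seen. It read -2.19 and -2.28 in the pair labelled male and -1.04 and -0.96 in the pair labelled female, and with an adjusted p of 0.0504 it lay just outside the threshold.

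All 13 genes of elongation and desaturation were measured, 2 fell and 2 were called higher, and the median was -0.31. The 2 that fell act on polyunsaturated chains: Fads1, the delta-5 desaturase, had -2.23 ± 0.21 (adjusted p 0.0152 in limma) and Elovl5 -1.19 ± 0.14 (0.0200). The 2 called higher were Scd2, at 2.72 ± 0.44 (0.0315), and Elovl7. The Elovl7 probe was well above background on 4 of 4 arrays in HepKO but on 1 of 4 in WT, so that its WT level was mostly not measured and its fitted log2 ratio of 1.73 ± 0.33 (0.0426) is not an exact size. In the pair labelled female, where WT was not above background on either array, it was at least 2.18-fold higher, the HepKO level against the higher of the WT probe's own level and the lowest level of probes above background. The ratio of Elovl7 was 4.67 with the Feature Extraction log ratios, and 1.05 with an adjusted p of 0.0601 as a mean over its probes, which lost the call. Scd2 is the desaturase paralog of Scd1 that adult liver expresses little. It read 2.10 and 1.66 in the pair labelled male and 3.75 and 3.37 in the pair labelled female, so that the paralogs moved in opposite directions in both pairs. The Scd2 probe was well above background on 4 of 4 arrays in both genotypes, but its WT levels were low, at 6.83 and 6.90. The size of its mean log2 ratio depended on the processing, at 2.20 with outlier spots in the background fit and 3.59 with the Feature Extraction log ratios. Scd1 and Scd2 are alike in sequence, and cross-hybridisation of their probes was not tested.

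Glycerolipid assembly, which puts new fatty acids into triglyceride, had 1 gene lower and 1 higher among 20 measured, with a median of -0.13. Both encode acyltransferases of the first step: Gpam, the mitochondrial enzyme, had -0.95 ± 0.14 (adjusted p 0.0280 in limma) and Gpat3, of the endoplasmic reticulum, 0.89 ± 0.15 (0.0355). In the list of SREBP processing and lipogenic control, 3 of 23 measured genes (25 listed) fell and 2 rose, with a median of 0.0068. Beside Insig1 and Mid1ip1 the transcription factor gene Usf2 fell (-0.78 ± 0.15, 0.0453). Pparg, the nuclear receptor of fat storage, rose (0.90 ± 0.19, 0.0490), and so did Cidec, which enlarges lipid droplets (1.96 ± 0.14, 0.0122). Cidec gave nearly equal ratios in both pairs, at 1.96 and 1.96.

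None of 21 measured genes of insulin and AMPK signalling (22 listed) passed the test in limma, with 13 means below 0 and 8 above and a median of -0.19. The largest ratio was that of Igfbp1, a gene that insulin represses, at 2.88 ± 0.83 with an adjusted p of 0.0917. Igfbp1 read 5.31 and 3.78 in the pair labelled male and 1.25 and 1.19 in the pair labelled female, above 0 on all 4 arrays. Its level was 10.29 in the WT mouse of the pair labelled male and between 13.56 and 14.83 in the other 3 mice. Prkab1, an AMPK subunit, came next in size, at 0.88 ± 0.19 with an adjusted p of 0.0517.

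Among ChREBP and LXR targets other than the 10 genes none was called lower, and lists of 12 are too short to set this apart from the 3.71% of all genes. Means lay below 0 for 5 of 12 ChREBP targets and 6 of 12 LXR targets. Of 12 ChREBP targets 2 rose, Fgf21, a hormone of liver stress and fasting (1.69 ± 0.14, adjusted p 0.0145 in limma), and Klf10 (1.12 ± 0.14, 0.0212), with a median of 0.023. Of 12 LXR targets Lpl, the lipase that frees fatty acids from lipoproteins (3.36 ± 0.56, 0.0334), and Abcg1, a cholesterol exporter (1.57 ± 0.18, 0.0183), rose, with a median of 0.00019. Cholesterol synthesis, the pathway of the sister factor SREBP-2, had 8 of 21 measured genes lower and none higher, beside 3.71% and 12% of all genes. All 21 means lay below 0, beside 42.4% of all genes. The median was -0.88, against -0.50 for the 10 lipogenic genes. Whether the 2 lists differ was not tested.

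**Figure D4:**
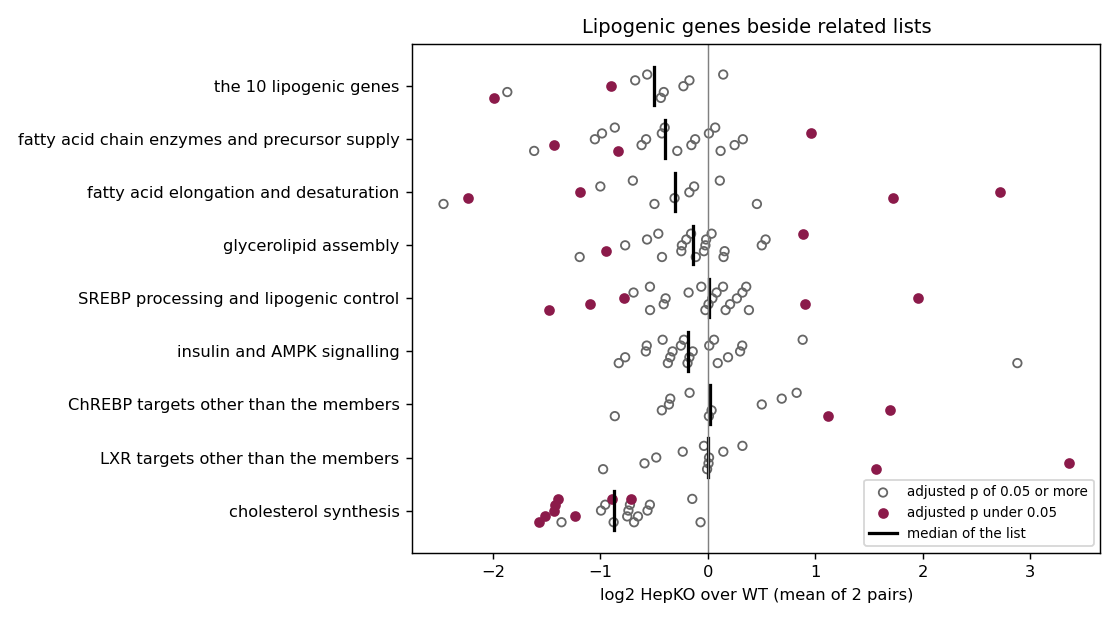
Log2 ratio of HepKO over WT (horizontal axis, mean of 2 pairs) of each measured gene in the 10 lipogenic genes, the 7 related lists and cholesterol synthesis (vertical axis). Filled points passed an adjusted p of 0.05, open points did not, and the black bar is the median of each list. The medians run from -0.88 for cholesterol synthesis and -0.50 for the lipogenic genes to 0.023 for the ChREBP targets, and Scd2 and Lpl stand to the right at 2.72 and 3.36.

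Several of these calls rested on single arrays. Without replicate 2 of the pair labelled male, 5 related genes were called higher and 4 lower. Insig1 and Mid1ip1 then lost their calls, as did Usf2 (adjusted p 0.0713 in limma), Pdha1 (0.0631), Pparg (0.0753), G6pdx (0.0555), Gpat3 (0.0692), Klf10 (0.0525) and Elovl7 (0.0663). In cholesterol synthesis Cyp51 (0.0641), Mvk (0.0556), Pmvk (0.0513) and Sc5d (0.0746) were lost in the same way. Without replicate 1 of the pair labelled female, 5 related genes were called lower, and the losses were Insig1, Usf2 (0.0806), Pdha1 (0.0627), Pparg (0.0779) and Elovl7 (0.0642), with Cyp51 (0.0773), Mvk (0.0598) and Sc5d (0.0548). Without replicate 2 of the pair labelled female, 13 related genes were called lower and Sc5d was lost (0.0521). Fads1, Elovl5, Aacs, Gpam, Scd2, Lpl, Cidec, Fgf21 and Abcg1 kept an adjusted p under 0.05 with each array left out in turn.

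Many markers of other liver cells rose in the same comparison, and some genes of the related lists are known from such cells. Of 14 macrophage markers 11 were measured and 9 rose, with a median log2 ratio of 1.61, while Cd163 stood at -0.75 ± 0.18, short of the threshold. The summed linear intensity of the 11 was 9373 in WT and 73360 in HepKO of the pair labelled male, and 22090 and 78480 in the pair labelled female. Of 11 endothelial markers 8 rose (median 1.13), of 10 measured lymphocyte markers 5 (0.75), of 8 neutrophil markers 3 (0.97), of 10 stellate cell markers 4 (0.76) and of 5 cholangiocyte markers 1 (0.56). Over all genes 12% were called higher, and 1 of 5 cannot be set apart from that share. Mean WT levels in the pairs labelled male and female were 6.34 and 6.47 for lymphocyte and 6.43 and 6.29 for neutrophil markers. These lie close to the floor, so that some of these markers could pass the filter on dim probes only through HepKO. The erythroid markers were divided, with a median of -0.25 over the 4 measured (8 listed). Of these Hba-a1 rose (3.27 ± 0.16, adjusted p 0.0099 in limma) and Alas2 fell (-0.90 ± 0.14, 0.0308). Lpl and Abcg1 are also macrophage genes, and the part of macrophages in their rise was not tested. Fat cells express Cidec, Pparg and Lpl, and 4 of 10 adipocyte markers were measured, with a median of 0.10. Fabp4 rose (2.32 ± 0.46, adjusted p 0.0461 in limma). Cidea read 0.29 ± 0.14, with WT above background on 0 of 4 arrays, Lipe -0.092 ± 0.14 and Plin4 -0.50 ± 0.15, none past the threshold. Of the others, Cfd was above background on 2 arrays, Adipoq on 1 and Lep, Plin1 and Retn on 0, and Adrb3 had no named probe. The part of fat cells in these ratios was not tested. The summed intensity of the 4 adipocyte markers was 1062 in WT and 2032 in HepKO of the pair labelled male. It was 765 and 2823 in the pair labelled female. The rise of this sum came from Fabp4, with log2 ratios of 1.43 and 3.21 in the pairs labelled male and female. Lipe (-0.095 and -0.089) and Plin4 (-0.60 and -0.41) were below 0 in both pairs, and Cidea (0.29 and 0.29) was dim. The sum thus followed 1 gene and does not show more fat cells. The hepatocyte marker sum was 1268000 in WT and 920000 in HepKO of the pair labelled male, and 981000 and 1089000 in the other. It was thus lower in HepKO in the pair labelled male and higher in the pair labelled female. The part of these shifts in the ratios of Scd1, Acacb and the other lipogenic genes was not tested.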

How the data were processed

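Total RNA of perfused liver hepatocytes from 4 mice was labelled with Cy3 and Cy5 and hybridised to 4 two-colour arrays, 2 dye-exchanged arrays per pair. Per the file headers, the scans went through Agilent's Feature Extraction, version 10.2.1.3. The deposited intensity values used here are, per channel, a spot's mean and its local background median, both unsubtracted. The log10 ratios deposited beside them, which per the file headers the software had corrected for background and dye, and the authors' value table, which holds the same log10 ratios turned to HepKO over WT (correlation of 1 or -1 with each array's own ratio, column medians of 0), served as alternatives. No other processing by the authors is stated in the labels.

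Spots with a non-uniformity flag, for the spot or its background, or a spot outlier flag (178 to 260 of 45018 per array) were removed. Intensities were corrected with normexp (offset 50) and loess-normalized within arrays in limma 3.58.1 (R 4.3.3), with the 1639 control spots at weight 0. No spot was saturated. The share of probes well above background was 48.2% to 58.6% per channel. Spots of a probe, then the 2 arrays of a pair, were averaged, since they share RNA extracts. Probes had to be well above background on both arrays of a pair in a genotype, and the brightest probe stood for a gene. Probe accessions were matched to symbols through the RefSeq table of GRCm38.p6, which named 22951 of 41174 probes (55.7%). An intercept model with eBayes tested the 2 pair values (1 residual degree of freedom, prior of 3.12), and p-values were adjusted over all genes measured. With 1 mouse per genotype and pair, they measure the spread between 2 pairs. Levels came from loess and Aquantile normalization. The fit was tested on simulated data.

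The 10 genes and all lists were chosen with earlier results of these data known. Named in the text are all 10 genes with every probe, Pnpt1, the sex-linked genes, 7 direct partners, and from each related list the genes past the threshold (at most the 6 largest), or the 2 with the largest change where none passed. Alternatives were the spots in the background fit, Feature Extraction ratios, the value table, median centring, the dim-probe filter, the mean over probes, each dye orientation alone, each array left out and, chosen after seeing the data, the removal of spots with a population flag on their background.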

Additional observations from a re-analysis of the deposited data

Results flagged for a closer look

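Among the genes named with values in the text, 6 had both arrays of one pair above 0 and both arrays of the other below, and the difference between the pairs was tested for none of them. The same held for 7 of the 111 related genes, Nr1h3 and Lpin1 included, and for 972 of all 11499 genes. Nr1h3, the gene of the liver X receptor alpha, read -0.042 and -0.029 in the pair labelled male and 0.023 and 0.076 in the pair labelled female, a difference (male minus female as labelled) of -0.0855, small beside its standard error of 0.14. Lpin1 differed by -1.77 between the pairs, the largest of the 6. Pnpt1, the targeted gene, read 0.31 and 0.058 on its brighter probe in the pair labelled male and -0.38 and -0.38 in the pair labelled female, a difference of 0.567, while its dimmer probe was below 0 on all 4 arrays. The hepatocyte markers Alb and Ttr were below 0 in the pair labelled male and above it in the other, with differences of -0.949 and -0.627. Hnf4a ran the opposite way, with a difference of 0.489. None of the 10 lipogenic genes had pairs of opposite sign on all their arrays.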

How the results depend on the processing

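Over 14 alternatives the median log2 ratio of the 10 lipogenic genes ranged from -0.56 to -0.47. The direction of 9 of the 10 was kept in each alternative, the exception being Srebf1, at -0.238 with median centring. With normexp fitted on all spots 0 genes were called in either direction, members and related genes included (smallest adjusted p in limma 0.0698, 3028 genes with an unadjusted p under 0.05), and likewise 0 with no filter on dim probes (0.0689, 4638 genes). Median centring called 1 member lower (Scd1) and 4 related genes lower. HepKO in Cy5 alone called 13 related genes lower. HepKO in Cy3 alone called 14, and 682 genes lower in all. With each array left out in turn, 1 to 2 members, 204 to 573 genes in all and 4 to 13 related genes were called lower, and 5 to 11 related genes higher. Means near 0 changed sign: Srebf2 was 0.0242 with median centring and 0.111 with HepKO in Cy3 alone. Insig2 was -0.0414 with HepKO in Cy3 alone. Nr1h3 was -0.00578 with all spots, -0.137 with median centring, -0.00993 with HepKO in Cy5 alone and between -0.00664 and 0.0203 with an array left out. The cause of these differences was not tested. The rule chosen after seeing the data, which also removed spots with a background population flag, called the same 2 members.

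Only 2 pairs, 1 mouse per genotype in each, limit the precision, so that intervals of about 0.4 log2 units on either side are the narrowest here and genes such as Me1, with 4 close arrays, did not pass. Labelled sex, age and slide differ together between the pairs, sex-linked genes go against the labels, and no source used here gives the feeding state.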

Other observations

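Elovl3, an elongase of long saturated and monounsaturated chains, was chosen after its values were seen, as the lowest mean among the genes of elongation and desaturation. It read -1.12 and -1.31 in the pair labelled male and -2.87 and -4.54 in the pair labelled female, below 0 on all 4 arrays. The mean log2 ratio was -2.46 ± 0.63 with an adjusted p of 0.0736 in limma, short of the threshold. Its level was 7.24 in WT and 6.03 in HepKO of the pair labelled male, and 12.84 and 9.13 in the pair labelled female. The HepKO mouse of the pair labelled male was well above background on 1 of 2 arrays, so that the ratio of that pair is limited from below by the signal, and the ratios of the 2 pairs are not compared. The 2 WT mice were above background on all their arrays.

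Lpin1, which makes diacylglycerol and also acts as a coregulator, was likewise chosen after its values were seen. It read -1.80 and -1.51 in the pair labelled male and 0.085 and 0.15 in the pair labelled female. The mean was -0.77 ± 0.46 with an adjusted p of 0.295 in limma.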
